A study of Mus musculus with 18 samples.

Results

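The genes described here are the cyclins, the cyclin-dependent kinases (Cdks), the Cdk inhibitors and the Cdc genes of mouse on a two-colour array. They were chosen by name. A probe was taken when its only gene symbol in the platform annotation began with Ccn, a letter and a digit, with Cdk and a digit, with Cdkn, or with Cdc and a digit. Cdc7 was left out, and a value on at least 5 of 18 arrays was required. Of 42 probes that matched by name, 33 probes of 32 genes had that many values, among 4658 such probes in the series. They were 10 cyclins, 11 Cdk probes, 6 Cdk inhibitors and 6 Cdc genes. The gene Cdk11b had 2 probes, M001587_01 and M005742_01. A shared name is not a shared role. Cdk2ap1 is a partner protein of Cdk2 and not a kinase, Cdc37 is a co-chaperone that helps kinases to fold, and Cdc42 is a small GTPase of cell shape with Cdc42ep5 as an effector.

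Cyclins bind and switch on Cdks, and each pair drives one stage of the division cycle. D and E cyclins with Cdk4, Cdk6 and Cdk2 release E2F factors from Rb proteins and open S phase, while A and B cyclins with Cdk2 and Cdk1 carry the cell through S phase and mitosis. Inhibitors of the Ink4 group block Cdk4 and Cdk6, inhibitors of the Cip/Kip group block a wider range of cyclin-Cdk pairs, and Cdc25 phosphatases remove the phosphates that hold Cdks inactive. Erythroid precursors divide a few more times while they start to make hemoglobin and then leave the cycle for good.

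The cells were MEL cells, an established murine erythroleukemia line blocked at a precursor stage, which takes up erythroid differentiation under the inducer HMBA. Each array compared total RNA of cells 1 to 6 days after HMBA with RNA of cells that had received none. On the day 0 arrays both channels held such control RNA. Series A had 1 array for each of days 0, 1, 2, 3, 4, 5 and 6, series B had 1 for each of days 0, 2, 3, 4, 5 and 6, and 5 more arrays, titled SD, belong to series B. Days 4, 5 and 6 are called late (6 arrays) and days 1 and 2 early (3 arrays). The labels do not say whether series A and B were separate cultures, so p-values measure the spread between these arrays only, which may be technical.

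All values below are log2 ratios centred on the median of their array. A value below 0 means less RNA in induced than in control cells if the direction is as taken here, which is likely and not settled. The labels name the first channel as induced on the 13 arrays other than SD, and the alpha globin probe Hba-ps3 averaged 5.02 on the late arrays against 0.59 on day 0. Of the 7 erythroid markers with at least 5 values, 6 were higher late than on day 0 and 1 lower. Against the early arrays 4 were higher and 3 lower. Late means were also above 0 for Hbb-b2 (2.36), Alas2 (2.78) and Tfrc (1.34). They were below 0 for Epor (-1.78), Gata1 (-0.36) and Klf1 (-0.80). The SD arrays of days 2, 3, 5 and 6 had their channel labels exchanged, and their values are given as deposited and kept out of the tests. The 13 arrays held between 2008 and 4945 values for 6868 probes. Values spread more widely in series B (SD 1.40 to 1.75 over the probes of an array) than in series A (0.82 to 1.31). The number of arrays limits the precision, and no signal strength stands behind a ratio. Of 12 erythroid markers, 7 had at least 5 values. Among markers of other cells, 2 of 4 mast cell, 1 of 5 lymphoid, 1 of 4 fibroblast and 0 of 6 myeloid markers had as many. The mast cell protease Mcpt2 averaged -4.18 late (n = 6) and -1.04 on 1 day 0 array. The other mast cell marker with at least 5 values, Kit, went the other way. It averaged 1.17 late (n = 3) and 0.52 on 1 day 0 array. The part of either gene in the results below was not tested. A ratio gives no level, so the makeup of the cultures cannot be read from it. In such bulk RNA, fewer cells with a transcript and less of it per cell cannot be told apart.

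Day 0 sets a limit on every member. With control RNA in both channels a ratio of 0 would mean no difference, yet 7 of the 25 members with a day 0 value had a day 0 mean more than 1 log2 from 0. Single values ran from -3.65 for Cdk4 in series B to 2.72 for Cdk11b probe M005742_01. These offsets recurred between series, with a correlation across genes of 0.89 over the 13 members measured on both arrays and 0.73 over 1935 probes of the whole array. Genes are not independent replicates, and the points of each array share its hybridisation. A late ratio was therefore read against day 0 where a day 0 value existed, and against the early arrays otherwise. Day 0 values were held by 2 arrays for 13 members, by 1 array for 12 and by none for 8.

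**Figure D1:**
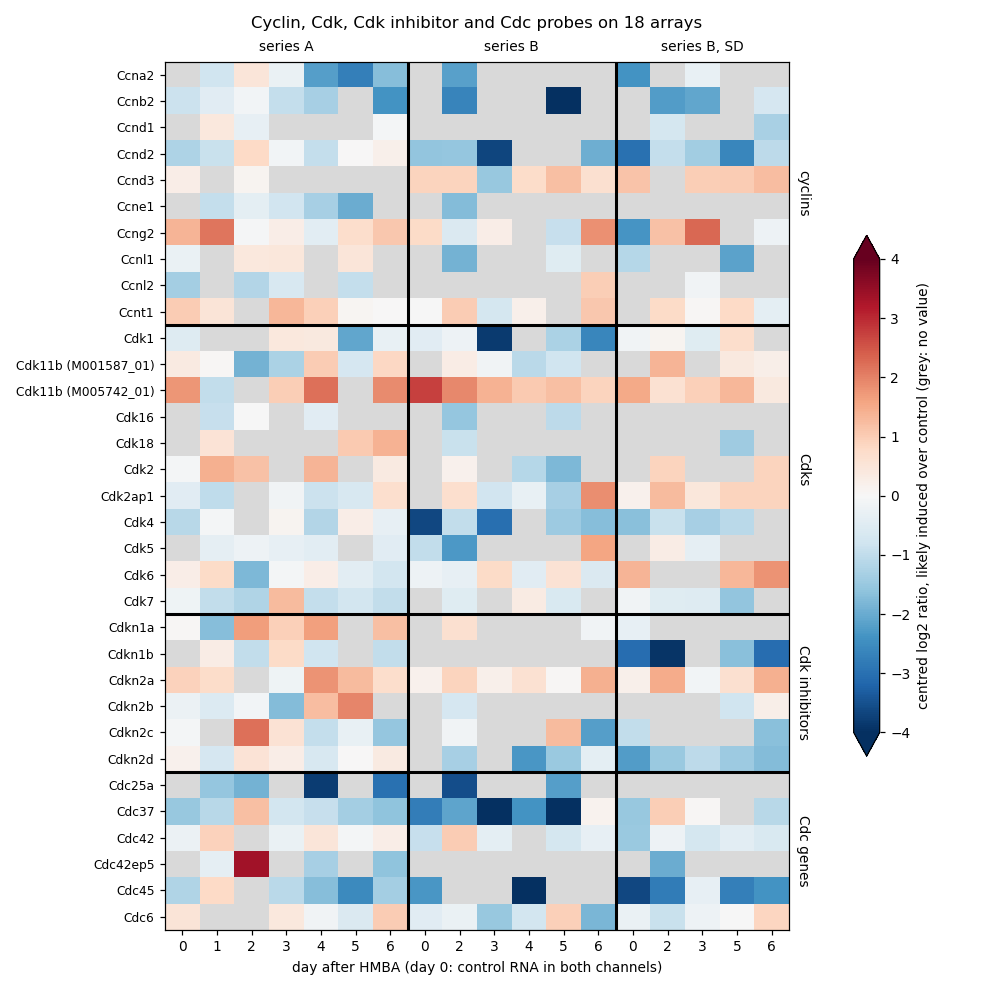
Centred log2 ratios of the 33 members (rows, by class) on the 18 arrays (columns, by series and day after HMBA), with blue below 0, red above 0, grey for no value and colours ending at 4 in size. Most cyclin and Cdc rows have gaps in series B. Cdk11b probe M005742_01 is red wherever it has a value, day 0 included, except on day 1 of series A.

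Of the 33 members, 13 probes had a value on at least 11 of the 13 arrays and on at least 1 day 0 array, and so could be tested. With limma, 0 of these 13 passed an adjusted p of 0.05 for late against day 0, and 0 had an unadjusted p under 0.05. Among all 1211 probes tested, 0 passed (0%) and 28 had an unadjusted p under 0.05 (2.31%). For early against day 0 the members gave 0 of 12 by either rule, while all 1060 probes gave 0 adjusted (0%) and 37 unadjusted (3.49%). For late minus early they again gave 0 of 12, and all 1050 probes gave 0 adjusted (0%) and 67 unadjusted (6.38%). A slope over days 0 to 6 gave 0 of 13 members, beside 0 adjusted (0%) and 41 unadjusted (3.36%) of 1221. The late adjusted p by limma was 0.9999 for each of the 13 members. The median standard error of a late difference was 0.82 log2 over all probes tested, so differences of the size seen in most members were not detectable with these arrays.

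Ranges on the arrays gave a like picture. Late values lay wholly below the early ones for 2 of 28 members with at least 2 values in each group, Cdc42 and Cdc42ep5, against 5.4% of 3741 probes. They lay wholly above for 2 of 28, Cdkn2b and Cdk18, against 6.15%. Against day 0, 0 of 13 members lay wholly below, where the array as a whole gave 4.09% of 1884 probes, and 0 of 13 wholly above, where it gave 8.01%. Of 24 members with at least 3 late values, 4 had every late value below 0 (16.7%), beside 18.6% of 3439 probes. Another 4 had every late value above 0 (16.7%), beside 18.9%. These shares are close to or under those of the whole array.

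**Figure D2:**
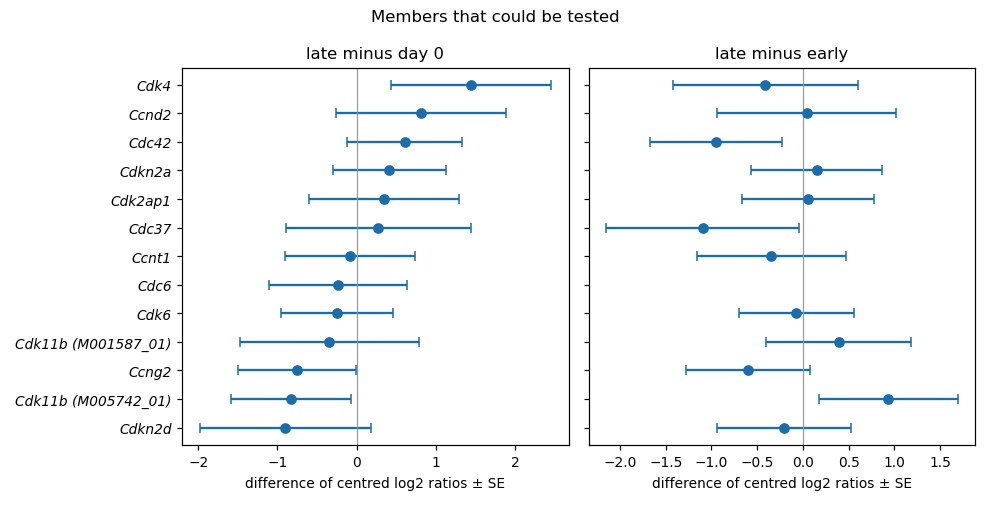
Difference of centred log2 ratios with its standard error from limma for the 13 tested member probes, late minus day 0 on the left and late minus early on the right (Cdc6 has no early mean in the fit). Late minus day 0 runs from -0.90 for Cdkn2d to 1.44 for Cdk4, and 0 of the 13 passed the test.

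The cyclins that act in S phase, G2 and mitosis had the lowest late ratios among the cyclins. For Ccna2, the cyclin of S phase and G2, series A gave -0.79, 0.49, -0.26, -2.19, -2.73 and -1.72 on days 1, 2, 3, 4, 5 and 6. Series B gave -2.17 on day 2. The 3 late values, all of series A, lay below the 3 earlier ones of that series, but the series B value of day 2 was as low as they were. The late mean was -2.21 ± 0.51 (SD, n = 3) and the early mean -0.82 (n = 3). No day 0 value existed on the 13 arrays, and the SD array of day 0, with control RNA in both channels, read -2.39.

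Ccnb2, a B cyclin of mitosis, read -0.85, -0.45, -0.09, -0.97, -1.34 and -2.40 in series A on days 0, 1, 2, 3, 4 and 6. In series B it read -2.64 on day 2 and -4.31 on day 5. Every one of its 7 ratios on induced days was below 0, and so was its day 0 ratio. The late mean of -2.68 ± 1.50 (SD, n = 3) was 1.83 below the single day 0 value and 1.62 below the early mean of -1.06 (n = 3). That day 0 value was of series A and the lowest late value of series B. Within series A the late mean was 1.02 below day 0. Late and early ranges overlapped through day 2 of series B. With 8 values on the 13 arrays it was not tested.

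Among the G1 cyclins, Ccne1, which activates Cdk2 at the start of S phase, was below 0 on all 6 arrays with a value. It read -0.96, -0.40, -0.76, -1.33 and -2.00 on days 1, 2, 3, 4 and 5 of series A and -1.74 on day 2 of series B. The late values were the lowest of series A, and the day 2 value of series B lay between them. Ccne2, its relative, had 4 values and so stayed just outside the minimum, with 0.10, -1.31, -1.52 and -0.96 on days 1, 2, 4 and 6 of series A.

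The D cyclins carry growth signals to Cdk4 and Cdk6. Ccnd2 had day 0 ratios of -1.24 and -1.58 in series A and B. Its late values were -0.94, 0.02 and 0.20 on days 4, 5 and 6 of series A and -1.95 on day 6 of series B, so late and day 0 overlapped. The late difference was 0.81 ± 1.07 (SE) log2 by limma. It was 0.45 without the day 6 array of series A and 1.17 without that of series B, the ends of its range when each array was left out. On array means it was 0.99 in series A and -0.37 in series B. Ccnd3 was above 0 on 7 of its 8 main arrays. Its late values in series B were 0.73, 1.21 and 0.66, and its day 0 values were 0.27 in series A and 0.88 in series B. Only day 3 of series B, at -1.52, was below 0. Ccnd1 met the minimum with exactly 5 values and read 0.42, -0.33 and -0.08 on days 1, 2 and 6 of series A.

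The other cyclins were mixed. Ccnt1, the cyclin of the elongation kinase Cdk9, had late values from 0.02 to 1.09 (median 0.21, n = 5), day 0 values of 1.01 and -0.01, and a late difference of -0.08 ± 0.82 (SE). Ccng2, an atypical cyclin linked to arrest, read 1.35 and 0.76 on day 0 and from -0.92 to 1.83 late (median 0.72, n = 5), with a late difference of -0.75 ± 0.74 (SE). Both overlapped with day 0. For Ccng2 the SD array of day 0, with control RNA in both channels, read -2.37. Ccnl1 and Ccnl2, cyclins of splicing kinases, had 2 late values each, 0.49 and -0.49 for Ccnl1 and -0.96 and 1.00 for Ccnl2, with opposite signs in series A and B.

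**Figure D3:**
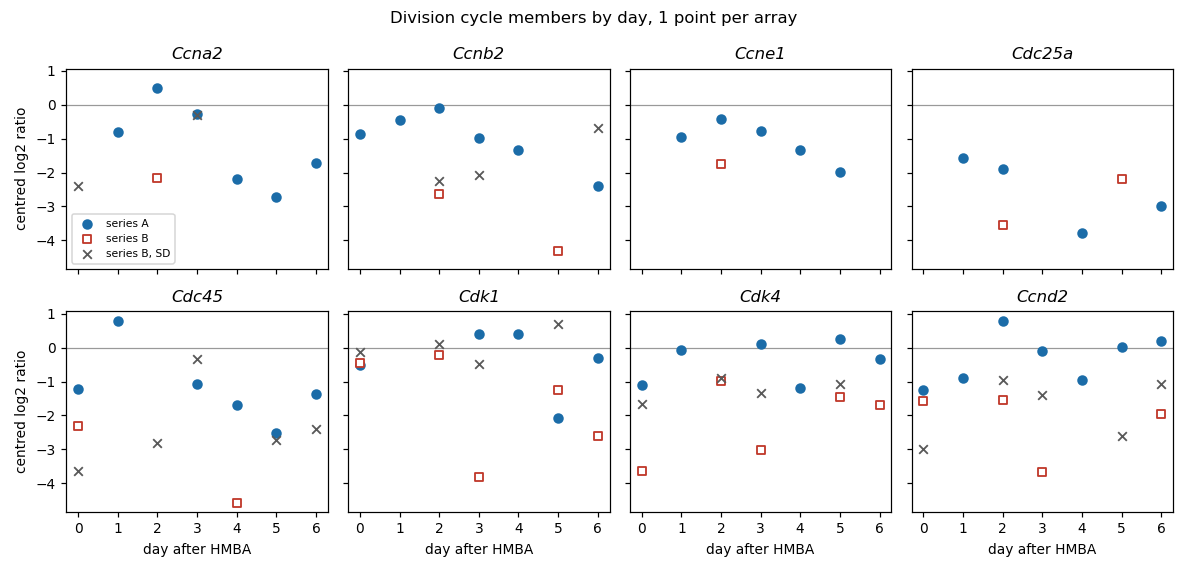
Centred log2 ratio against day after HMBA for 8 division cycle members, 1 point per array (filled circles series A, open squares series B, crosses SD arrays as deposited). Ccna2, Ccnb2, Ccne1 and Cdc25a lie mostly below 0, and series B points often sit below those of series A on the same day.

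Among the Cdks of the division cycle, the late mean was below 0 for 4 of 4, beside 50.5% of 4604 probes of the whole array. Against day 0 they did not move one way. Cdk1, the kinase that B cyclins activate for mitosis, read -0.52 and -0.46 on day 0 of series A and B. Its late values were 0.40, -2.07 and -0.31 in series A and -1.25 and -2.61 on days 5 and 6 of series B, with a mean of -1.17 ± 1.23 (SD, n = 5). Late and day 0 overlapped, since days 4 and 6 of series A were above both day 0 values. The lowest Cdk1 ratio of all, -3.82, was on day 3 of series B, where series A read 0.41.

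Cdk4, the partner of D cyclins, had the highest late difference among the tested members, and this came from low day 0 ratios. It read -1.11 and -3.65 on day 0, and -1.19, 0.26, -0.34, -1.45 and -1.71 late. Late and day 0 overlapped by day 0 of series A. The late difference was 1.44 ± 1.01 (SE) log2 by limma, a 2.72-fold difference with an unadjusted p of 0.174 and an adjusted p of 0.9999. It rested on the day 0 arrays, at 0.18 when only series A supplied day 0 and 2.71 when only series B did.

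Cdk6, which also pairs with D cyclins, read 0.27 and -0.21 on day 0 and from -0.72 to 0.58 late (median -0.44, n = 6). Its late difference was -0.25 ± 0.70 (SE). Its early values ran from -1.79 to 0.76, and the SD arrays of days 0, 5 and 6 read 1.36, 1.32 and 1.79. Cdk2, the partner of E and A cyclins, was split by series. It read 1.35 and 0.37 late in series A and -1.14 and -1.80 late in series B, against -0.07 on day 0 of series A and 1.42, 1.18 and 0.16 on the early arrays. The late series B values lay below all others, and day 0 of series B had none to compare them with.

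Other Cdks act in transcription or outside the cycle. On array means, 6 of 6 such probes, both Cdk11b probes among them, were above their early level, by 0.07 to 1.39 log2 (median 0.67). Over the whole array 2375 of 4542 probes were above it, with a median of 0.05. Against day 0 the direction was the opposite, with 3 of 4 probes lower and a median of -0.47. Nor did the early comparison hold within each series, since Cdk5 differed by -0.15 in series A and the Cdk11b probes by -1.22 and -0.87 in series B. Cdk7, the kinase that activates other Cdks and phosphorylates RNA polymerase II, read -0.94, -0.75, -0.98, 0.32 and -0.60 on the late arrays. Its day 0 value was -0.16 in series A, and its early values were -0.99, -1.19 and -0.48. Late and early overlapped. Cdk18 met the minimum with 5 values and read 1.06 and 1.39 late against 0.54 and -0.88 early, with the SD array of day 5 at -1.43. Cdk16, also with 5 values, was below 0 on each of its arrays, from -1.54 to just under 0.

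The 2 probes of Cdk11b, a kinase of transcription and splicing, did not read alike. Probe M005742_01 was above 0 on all arrays but day 1 of series A, with 1.76 and 2.72 on day 0 and from 0.89 to 2.20 late (median 1.21, n = 5). Its late difference was -0.83 ± 0.76 (SE). It ran from -1.31 to -0.35 when either day 0 array was left out, and was -1.63 with quantile normalization. Probe M001587_01 read 0.36 on day 0 and from -1.09 to 1.00 late (median -0.67, n = 5), with a late difference of -0.35 ± 1.13 (SE). Their late ranges shared only the stretch between 0.89 and 1.00, and which of them tracks the transcript was not tested. Cdk2ap1 had a late difference of 0.35 ± 0.95 (SE).

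The Cdk inhibitors showed no common direction. The late mean was below 0 for 3 of 6 and above 0 for 3 of 6. In the Cip/Kip group, Cdkn1a, known as a target of p53 and a brake on several Cdks, read 0.06 on day 0 of series A. It then read -1.69, 1.68, 0.96, 1.65 and 1.21 on days 1, 2, 3, 4 and 6 of that series. In series B it read 0.65 on day 2 and -0.15 on day 6. Series A was thus above its day 0 value from day 2 on. Series B had no day 0 value on the main arrays, so its single late value could not be read against its own series. Cdkn1b, which restrains Cdk2, read 0.30, -0.99, 0.77, -0.79 and -0.97 on days 1, 2, 3, 4 and 6 of series A and had no other main value. On the SD arrays it read -3.06, -3.92, -1.68 and -3.04 on days 0, 2, 5 and 6. Those 4 lie below every series A value, and one of them is the day 0 array with control RNA in both channels.

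In the Ink4 group, Cdkn2a, whose locus also encodes the p53 regulator Arf, was above 0 on 6 of 6 late arrays, from 0.05 to 1.79 (median 0.97). Its day 0 values were 0.92 and 0.19, inside that range, and the late difference was 0.41 ± 0.72 (SE). It ran from 0.05 to 0.78 when either day 0 array was left out, and was 0.09 with quantile normalization. Cdkn2b read 1.24 and 1.96 on days 4 and 5 of series A, above its day 0 value of -0.24, its early values of -0.54, -0.09 and -0.66 and its day 3 value of -1.74. The SD arrays of days 5 and 6 read -0.79 and 0.24 for it. Cdkn2c read -0.96, -0.30 and -1.55 late in series A and 1.28 and -2.22 late in series B, around its day 0 value of -0.07. Its early values were 2.20 and -0.14. Cdkn2d read 0.16 on day 0 and -0.64, 0.02 and 0.36 late in series A, and -2.33, -1.47 and -0.38 late in series B. The late difference was -0.90 ± 1.08 (SE), but series B had no day 0 value on the main arrays. The SD array of day 0, with control RNA in both channels, read -2.24. Within series A the late difference was -0.25 on array means.

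**Figure D4:**
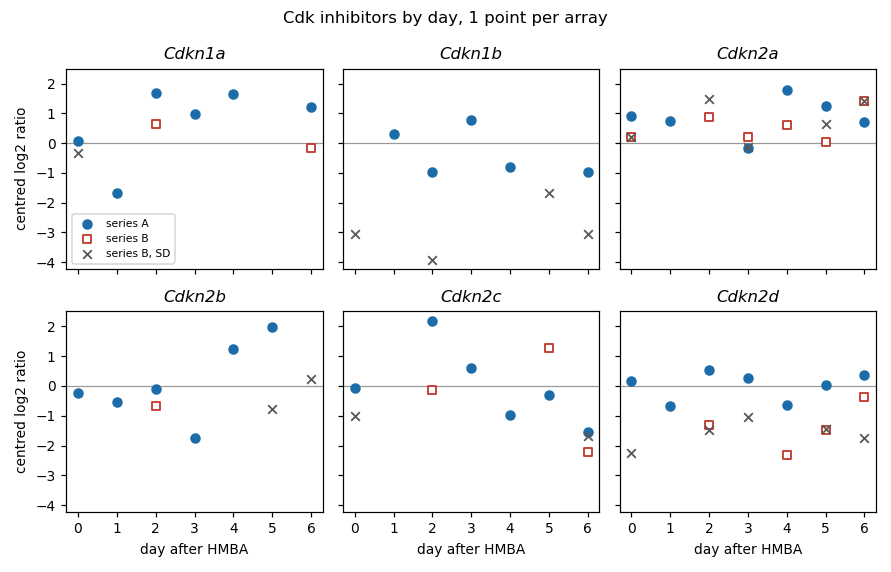
Centred log2 ratio against day after HMBA for the 6 Cdk inhibitors, 1 point per array (filled circles series A, open squares series B, crosses SD arrays as deposited). Cdkn2a stays near or above 0 throughout, Cdkn1b lies lower on SD arrays than in series A, and Cdkn2d lies lower in series B than in series A on each shared day.

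All 6 Cdc genes had a late mean below 0, from -2.99 to -0.07, beside 50.5% of the probes of the whole array. Late means were below early means for 5 of 6, beside 47.7% of 4542 probes. Against day 0 they were below for 2 of 4 and above for 2 of 4. Cdc25a, the phosphatase that activates Cdk2 at the start of S phase, had the lowest mean. It read -1.56 and -1.89 on days 1 and 2 and -3.80 and -2.98 on days 4 and 6 of series A. In series B it read -3.56 on day 2 and -2.20 on day 5. Series A was lower late than early, and series B was the other way round. Cdc25a had no day 0 value, so the offset of its probe with control RNA in both channels is not known.

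Cdc45, part of the helicase that unwinds DNA at replication forks, read -1.21, 0.80, -1.06, -1.71, -2.53 and -1.35 on days 0, 1, 3, 4, 5 and 6 of series A. In series B it read -2.32 on day 0 and -4.58 on day 4. The SD arrays were also below 0, at -3.64, -2.81, -0.33, -2.72 and -2.39, the first of them with control RNA in both channels. The late mean of -2.54 ± 1.44 (SD, n = 4) was 0.77 below the day 0 mean of -1.77, and the ranges overlapped. Cdc6, which loads the replicative helicase onto origins, read 0.51 and -0.47 on day 0 and from -1.83 to 1.01 late (median -0.35, n = 6). Its late difference was -0.23 ± 0.87 (SE).

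Cdc37 had low ratios on day 0 too, -1.52 and -2.76. It read from -5.03 to 0.13 late (median -1.49, n = 6), which gave a late difference of 0.27 ± 1.17 (SE). Its late ratios set against 0 instead gave -1.87, so the reference decides the sign. Cdc42 read -0.24 and -0.93 on day 0, 0.92 and 1.02 on days 1 and 2, and from -0.70 to 0.49 late (median -0.09, n = 5). The late values lay under both early ones and overlapped with day 0. The SD array of day 2, however, read -0.20, inside the late range. The late difference of Cdc42 was 0.61 ± 0.72 (SE), and late minus early was -0.95 ± 0.72 (SE) with an adjusted p of 0.836 by limma. Cdc42ep5, with 5 values, read -0.36 and 3.36 early and -1.34 and -1.60 late, all in series A. Its remaining value, on the SD array of day 2, was -1.98 and below both late values. Cdc42ep4, just outside with 4, read 0.61 on day 2 and -1.43, -0.07 and -1.42 on days 4, 5 and 6 of that series.

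Over the whole set, late differences by the fit were below 0 for 13 of the 20 members that had one, with a median of -0.30. Over all 2613 such probes 40.6% were below 0, with a median of 0.16. The medians were -0.08 for 5 cyclins, -0.36 for 8 Cdk probes (0.08 with values not centred), -0.72 for 3 inhibitors and 0.02 for 4 Cdc genes. Plain array means, which also cover members lacking a late day, gave 13 of 25 members below day 0, beside 40.8% of 3992 probes. On array means the medians were 0.25 for 7 cyclins, -0.25 for 9 Cdk probes, 0.41 for 5 inhibitors and 0.02 for 4 Cdc genes. The 5 members without a fitted difference (Cdkn1a, Cdkn2b, Cdk5, Ccnl1 and Ccnl2) were all above day 0. The count, and the sign of the cyclin and inhibitor medians, thus depended on which members had a value on every late day. For late minus early, array means gave 18 of 33 below 0, beside 47.7% of all probes. By series, 18 of 30 members were lower late than early in series A, where 46.5% of all probes were. In series B 17 of 24 were, where 60.6% of all probes were. Of 12 members with late and day 0 values in both series, 8 had the same sign of difference in both. The share over all probes was not counted for this.

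The promoters of 28 of the 32 genes were matched in the RefSeq table (build GRCm38.p6), each from 250 bases before to 50 bases after a gene start. Ccna2, Ccnd1, Ccnd2 and Cdk5 were not matched. Letters were searched on both strands. The E2F letters TTTCCCGC or TTTGGCGC were found for 4 of 28 members (14.3%), Cdc25a, Cdc6, Cdk2 and Cdkn2a, beside 1.80% of 27025 genes. The letters TTTGAA of the cell cycle genes homology region, an element known from late cell cycle genes, were found for 6 of 28 (21.4%) beside 20.2% of genes. The members with them were Ccnb2, Cdc42ep5, Cdc45, Cdk1, Cdk16 and Cdkn2b. The letters CCAAT were found for 15 of 28 (53.6%) beside 41.1%. A match is a description and not a binding site. The stretches of Ccnb2, Cdk1 and Cdc25a are shown to place these letters, and were chosen after the search because they hold them. Ccne1 is shown beside them as a gene whose ratios on induced days were all below 0, as for Ccnb2 and Cdc25a, but whose promoter held none of the letters searched. On late arrays alone, values wholly below 0 were no more frequent among members than over all probes, as given above. The stretches lie just before a gene start, that of Cdc25a ends where its E2F letters end, and each is written along the strand of its gene. Capitals mark the 3 kinds of letters searched, on either strand. They are Ccnb2 at chr9:70421555-70421674 (minus strand), Cdk1 at chr10:69352913-69353032 (minus strand), Cdc25a at chr9:109875459-109875519 (plus strand) and Ccne1 at chr7:38107491-38107610 (minus strand).
Ccnb2: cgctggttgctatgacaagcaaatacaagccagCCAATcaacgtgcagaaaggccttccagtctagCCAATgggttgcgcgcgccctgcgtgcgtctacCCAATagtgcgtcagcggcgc
Cdk1: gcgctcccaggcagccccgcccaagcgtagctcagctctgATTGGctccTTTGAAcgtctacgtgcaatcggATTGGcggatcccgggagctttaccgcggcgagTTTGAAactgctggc
Cdc25a: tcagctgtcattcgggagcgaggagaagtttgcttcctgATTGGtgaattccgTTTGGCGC
Ccne1: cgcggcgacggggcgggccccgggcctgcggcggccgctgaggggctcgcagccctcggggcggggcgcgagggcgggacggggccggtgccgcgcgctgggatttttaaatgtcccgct
Ccnb2 holds 3 CCAAT boxes in this stretch, at 87, 54 and 21 bases before the start. It also holds TTTGAA outside this stretch, from 167 bases before and from 4 bases after the start. In its stretch Cdk1 holds 2 CCAAT boxes on the opposite strand and TTTGAA at 71 and 15 bases before the start. Another CCAAT box on the opposite strand lies outside the stretch, from 208 bases before the start of Cdk1. In its stretch Cdc25a holds 1 CCAAT box on the opposite strand and its E2F letters from 67 bases before the start. Another CCAAT box on the opposite strand lies outside the stretch, from 131 bases before the start of Cdc25a. The ratios of these 4 genes were given above, and no link between letters and ratios was tested.

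Of 74 further genes of the pathway, 50 were on the platform and 47 had at least 5 values. With limma, 0 of 9 that could be tested passed for late against day 0, and 0 had an unadjusted p under 0.05, with 1 lower and 8 higher. For early against day 0, 0 of 6 passed and 1 had an unadjusted p under 0.05, on the higher side. On array means, 27 of 46 were lower late than early and 18 of 38 lower than day 0. Beside them, 47.7% of all probes were lower late than early and 40.8% lower than day 0. Of 10 genes of the spindle checkpoint and anaphase, 8 were lower late than early, but only 4 of 10 were lower than day 0. Of the kinases of mitosis and checkpoint, 7 of 10 were lower late than early and 5 of 7 lower than day 0. Mad2l1, a spindle checkpoint protein, averaged -2.46 late (n = 4), -0.87 early (n = 3) and -0.60 on 1 day 0 array. Chek1, the kinase of the replication checkpoint, averaged -1.90 late and 0.13 early (n = 3 each). Aurkb, a kinase of chromosome segregation, averaged -6.49 on 2 late arrays and -1.57 on 1 day 0 array, with no early value. These 3 genes were picked for their low late means after the values were seen. The E2F and Rb group went the other way from early to late, with 2 of 7 lower, but 5 of 6 of its genes were lower than on day 0.

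The SD arrays of days 2, 3, 5 and 6 shared the sign of the series B array of the same day, as deposited, for 12 of 17, 7 of 12, 9 of 13 and 8 of 13 members. All probes did so for 72.1%, 59.1%, 64.4% and 71.6%. The day 0 arrays shared offsets as well, so this share does not settle the direction of the SD arrays.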

How the data were processed

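The deposited table holds log2 ratios per probe and array. The scale is not stated and was recognised from the values, since low values are the log2 of a ratio with 3 decimals, and on SD arrays the same holds for minus the high values. Numerator channel, dyes, scanner, image analysis and any earlier normalization are not given in the sources used here, and nothing in the labels says why the SD sign differs. As deposited, array medians ran from -0.09 to 0.63 on the 13 main arrays and from -0.15 to 0.70 on SD arrays. Scale is thus read from the values, centring as deposited is absent, and direction is only likely.

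Each array was centred on its median. Probes were named by the platform annotation (6108 with 1 symbol, 41 with several, 719 with none), and all 33 member symbols matched a RefSeq gene table by Entrez identifier. Day means over the 13 main arrays, without further terms, were fitted for probes with at least 11 values and 1 on day 0, with a moderated test by limma 3.58.1 (R 4.3.3), two-sided, Benjamini-Hochberg over all probes tested, and a shared spread (prior degrees of freedom 10.4, prior SD 0.97). Day 1, with 1 array, was assumed to vary like the other days. A late difference with a standard error is the mean of the fitted means of days 4, 5 and 6 minus day 0, while array means weight each array equally. Some contrasts could not be fitted for probes lacking a day. The steps were tested on simulated data. Values were named for a fixed list of division cycle genes and for the 4 members per class with the smallest late p among those with 2 late arrays and 1 day 0 array, and other members for their role. The members and all lists were chosen with earlier results of these data known. Alternatives covered centring, scaling, quantile normalization, filters, SD arrays, the series letter as a block, the reference and leaving out each array.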

Additional observations from a re-analysis of the deposited data

Results flagged for a closer look

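For Cdk7 the late value of day 4 in series B, 0.32, stood apart from the other 4, of which the nearest was -0.60. The gap, 0.7115 as a share of the range, was only just above 0.71, the critical value of Dixon's test for 5 values. Among the 18 members with 4 or more late values it was the only one so marked, and chance marks about 1 in 20 such groups. For Cdk11b probe M005742_01 every late value of series A lay above day 0 of that series, with a mean difference of 0.28, and every one of series B below, with -1.67. For Ccnt1 the series went the other way round, with -0.65 in series A and 0.66 in series B. Neither difference between the series was tested, and each rests on 1 day 0 array per series.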

How the results depend on the processing

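Calls of members stayed at 0 under the alternatives that could be fitted, apart from late ratios set against 0 in place of day 0, which called 309 of 1211 probes and 2 of 13 members (Cdc37 at -1.87 and Cdk11b probe M005742_01 at 1.41). Against 0 the late difference also had the other sign for Ccnd2 (-0.60), Ccng2 (0.31), and Cdk4 (-0.93), and the median of the Cdc genes was -1.87. The day 0 arrays show offsets of the same size, which such a test does not remove. The unadjusted threshold gave 28 late calls, and values not centred gave 1 call for the slope. Without the only day 1 array the comparisons with early days could not be fitted. Late calls ran from 0 to 1 when each array was left out, with 1 when either day 3 array was missing. With SD arrays averaged in as deposited, Cdc37 gave -0.14, Cdkn2d 0.19 and the median of the inhibitors 0.46, and with their sign turned Cdc37 gave -0.72. Leaving out 1 array moved Cdc37 from -0.35 to 0.89, Cdc6 from -0.72 to 0.26, Cdc42 from 0.26 to 0.95, Cdc45 from -1.13 to -0.02, Cdk6 from -0.49 to -0.01 and Ccng2 from -1.05 to -0.45. Cdc37 turned below 0 when the B array of day 0, the A array of day 5 or the B array of day 6 was missing, and Cdc6 above 0 when the A array of day 0 or 5 or the B array of day 6 was. The median of the cyclins ran from -1.02 to 0.20, lowest when the A array of day 5 was missing, and that of the inhibitors from -0.83 to 0.78, highest when the A array of day 0 was, which left 1 inhibitor. The median of the Cdks ran from -0.53 to -0.07 and that of the Cdc genes from -0.54 to 0.57. The cause was not tested. Same-letter arrays deviated together in 14 of 15 pairs at a correlation over 0.1 (lowest 0.03, median 0.26), and in 1 pair did not. The letters were not used as a pairing in the reported fit, although arrays of a series tended to share deviations. With the series letter as a replicate block there was 1 late call, 1 call for the slope, 0 members called, a median of -0.18 for the inhibitors, and late differences of 0.51 for Cdk2 and -0.06 for Ccnd3, both untested and of the other sign. The block also brought the late differences of Cdkn2d, Ccnb2 and Ccnd2 nearer to 0, to -0.18, -0.98 and 0.11. It moved others away from 0, such as Cdc45 from -0.57 to -1.24, Cdk1 from -0.42 to -0.65 and Cdk7 from -0.49 to -0.73.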
